A study of Mus musculus with 8 samples.

Results

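The corticotropin-releasing hormone (CRH) system was examined in RNA pulled down with the ribosomes of mouse hypocretin neurons. Its 5 genes were taken by symbol, Crh, Ucn, Crhbp, Crhr1 and Crhr2, out of 18194 genes that had a probe set with a single gene symbol on the Affymetrix array. They were covered by 7 probe sets. The transgene was a bacterial artificial chromosome of the line Hcrt JD218, carried on a mixed Fvb and c57/bl6j background, and no mice without the transgene were among the samples analysed here. Diencephalon, meaning thalamus and hypothalamus together, was dissected from adult males and females of 6 to 12 weeks, with 5 mice pooled per sample. The immunoprecipitate group held 4 samples of RNA from the affinity-purified ribosomes (TRAP). The unbound group held 4 samples of the RNA left over from the same preparations, which serves as the RNA of the whole tissue.

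CRH is the peptide with which neurons of the paraventricular nucleus start the hormonal stress response, and it also acts as a transmitter within the brain. Urocortin, the product of Ucn, is a related peptide. The receptors encoded by Crhr1 and Crhr2 are class B G protein-coupled receptors that mainly raise cyclic AMP. CRH binds the type 1 receptor more tightly than the type 2 receptor, whereas urocortin binds both, and the secreted protein encoded by Crhbp binds both peptides outside cells. Hypocretin neurons lie in the lateral hypothalamus and promote wakefulness, and CRH is known to reach and excite them.

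The members of the system went different ways. Crhr2, the type 2 receptor, was at least 7.86-fold higher in the immunoprecipitate by the probe set that gave signal. Crh, the ligand, was 12.4-fold lower, and Crhbp, the binding protein, was at least 3.36-fold lower. The minimum folds hold only for the scaling used here. Crhr2 gave a log2 difference of 2.72 when scaled on the poly-A controls, and Crhbp gave -0.93 after quantile normalization. Crhr1 stayed near or under the limit of measurement in both groups, and Ucn stayed under it on every array. Levels are deposited log2 values after a constant of 0.01 was taken from the immunoprecipitates and added to the unbound arrays. A linear value of 50, which is 5.64 on the log2 scale, was taken as the lowest level that counts as measured. Of the 5 genes, 3 passed the filter of that level on at least 4 arrays, which 10398 genes and 17865 probe sets passed in all. Crh passed through both groups. Crhr2 passed through the immunoprecipitates alone and Crhbp largely through the unbound fractions, so that for those 2 genes the filter itself selects a difference. A probe set was called where it differed 2-fold or more with a limma adjusted p under 0.05.

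**Figure D1:**
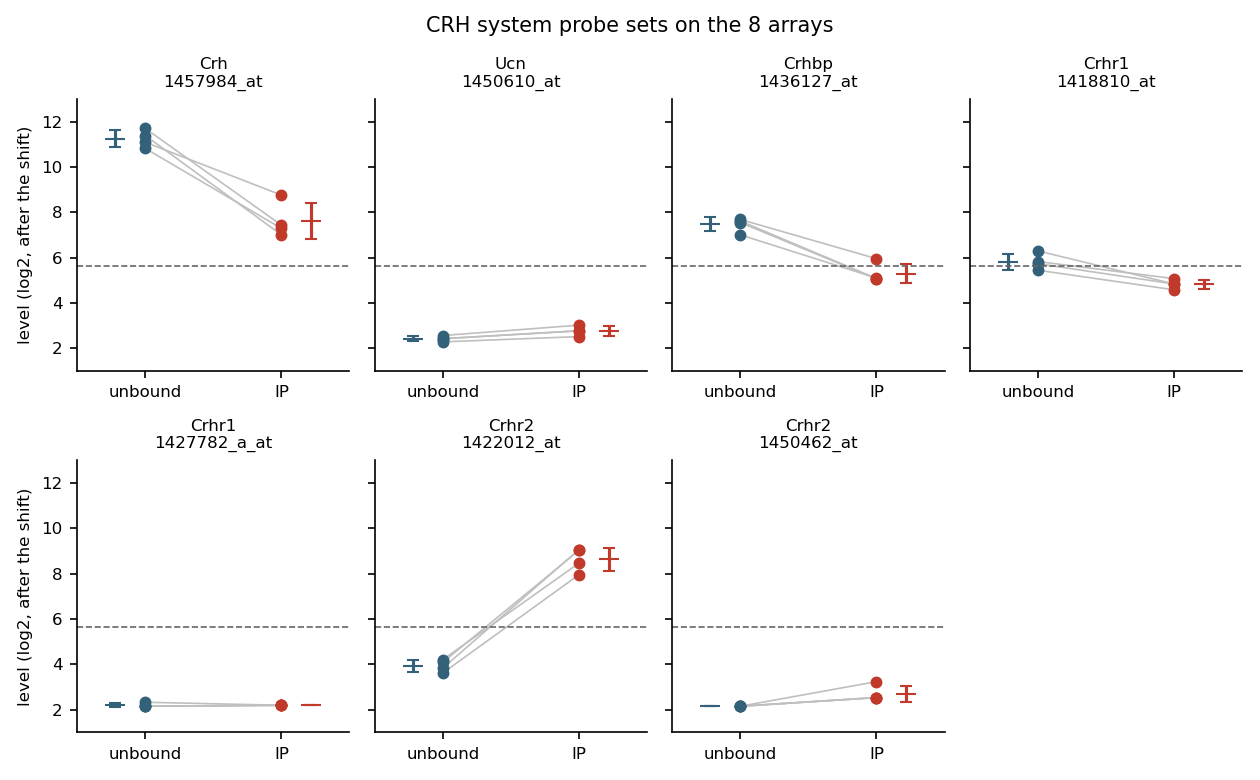
Level (log2, after the shift) of each of the 7 probe sets of the CRH system in the 4 unbound samples (blue) and the 4 immunoprecipitates (IP, red), 1 point per array, with lines joining fractions of 1 preparation, bars for mean and SD beside the points, and a dashed line at a linear value of 50. The probe set 1422012_at of Crhr2 lies between 7.96 and 9.07 in the immunoprecipitates and between 3.62 and 4.21 in the unbound samples, Crh and Crhbp fall between the fractions, and Ucn stays under the line on all 8 arrays.

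The sequences before the transcription start of Crhr2 and Crhbp are shown because these genes were called in opposite directions and are held by the promoter table of RefSeq (build GRCm38.p6). Each is the 250 bases before the listed start, 5′ to 3′ on the strand of the gene, which is the minus strand for both. Capitals mark matches, on either strand, to the TATA box letters TATAAA or to TGACG, which reads CGTCA on the other strand and is the core of the cyclic AMP response element TGACGTCA. The Crhr2 sequence is chr6:55133017-55133266 and the Crhbp sequence is chr13:95444832-95445081.
Crhr2: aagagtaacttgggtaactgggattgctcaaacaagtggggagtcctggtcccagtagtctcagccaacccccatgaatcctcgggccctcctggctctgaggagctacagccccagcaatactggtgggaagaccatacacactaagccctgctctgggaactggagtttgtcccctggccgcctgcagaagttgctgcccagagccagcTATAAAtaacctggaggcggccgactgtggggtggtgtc
Crhbp: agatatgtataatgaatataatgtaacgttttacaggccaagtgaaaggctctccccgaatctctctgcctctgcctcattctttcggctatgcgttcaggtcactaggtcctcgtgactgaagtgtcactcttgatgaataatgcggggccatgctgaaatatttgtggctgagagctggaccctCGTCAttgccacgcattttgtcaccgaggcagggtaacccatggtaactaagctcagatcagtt
Crhr2 held TATAAA, whose first base lies 39 bases before the start, as did 12.4% of the 32851 promoter sequences searched over the same length. Crhbp held the core on its other strand, 64 bases before the start, and 17.8% of the sequences held a core on either strand. The full element, which includes the core on both strands, was found in 1.55% of all sequences and in neither of these. Of the other members in that table, Ucn, which gave no signal above 50, held the full element and Crhr1 held none of these motifs. These matches describe letters and not binding.

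Crh, the ligand, was read by a single probe set. Its levels were 8.76, 7.0, 7.43 and 7.29 in immunoprecipitates 1 to 4 and 11.09, 11.38, 11.70 and 10.82 in unbound samples 1 to 4. All 8 arrays lay above the minimum, the groups did not overlap, and immunoprecipitate 1 stood above the other 3. The mean was 7.62 ± 0.78 against 11.25 ± 0.38 (SD, n = 4 each), a log2 fold change of -3.63 ± 0.38 (SE; limma adjusted p = 3.6e-05). The drop within a preparation was smallest in replicate 1, at -2.33, and reached -4.38, -4.27 and -3.53 in the other preparations. In such bulk fractions, fewer cells that make an RNA and less of it per cell cannot be told apart.

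Crh was called lower, as were 45.1% of all tested probe sets, while 4.88% were called higher. The median tested probe set changed by -0.87, so that Crh lay 2.75 below it on the log2 scale. Among the tested probe sets 2.97% had a lower fold change than Crh. Groups that did not overlap, with the immunoprecipitate below, were seen in 50.1% of the tested probe sets, and the absence of overlap alone therefore does not set Crh apart.

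**Figure D2:**
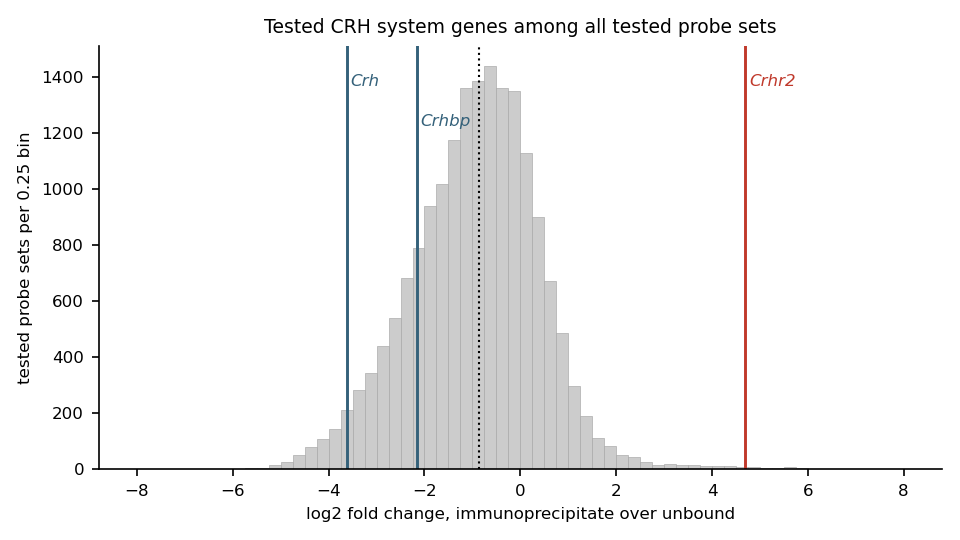
Histogram of the log2 fold change of the 17865 tested probe sets (x axis, immunoprecipitate over unbound; y axis, probe sets per bin of 0.25), with the tested genes of the CRH system as solid lines and the median of all tested probe sets, -0.87, as a dotted line. Crh at -3.63 lies in the left tail, Crhbp at -2.16 within the left shoulder and Crhr2 in the right tail at a fitted 4.69, which rests on unbound levels under 50.

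Ucn, the other peptide gene of the set, ran from 2.51 to 3.02 in the immunoprecipitates and from 2.28 to 2.56 in the unbound samples. These values lie just above the lowest value on the arrays, which was 2.21 for immunoprecipitates and 2.14 for unbound samples as deposited, and the groups overlapped. No fold is given. The close relatives Ucn2 and Ucn3, which encode further urocortins, were likewise under 50 on every array.

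Crhbp, the binding protein that can hold the peptides away from their receptors, was lower in all 4 preparations. Its levels were 5.10, 5.06, 5.08 and 5.95 in immunoprecipitates 1 to 4 and 7.0, 7.55, 7.61 and 7.68 in unbound samples 1 to 4. Only immunoprecipitate 4 reached the minimum, and the groups did not overlap. The log2 fold change was -2.16 ± 0.29 (SE; limma adjusted p = 0.00013), from means of 5.30 ± 0.44 and 7.46 ± 0.31 (SD, n = 4 each). Crhbp passed the filter largely through the unbound samples, which favours a drop, so this p is no separate support. With values under 50 raised to 50, the gene was at least 3.36-fold lower on the scaling used here. A lower fold change was found in 17.8% of the tested probe sets, so the drop of Crhbp was common on these arrays. After quantile normalization over all 8 arrays it was -0.93 (limma adjusted p = 0.027), short of 2-fold.

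Crhr1, the type 1 receptor, had 2 probe sets, and neither passed the filter. The probe set 1418810_at gave 4.58, 4.84, 5.07 and 4.84 in immunoprecipitates 1 to 4 and 5.44, 5.73, 5.82 and 6.30 in unbound samples 1 to 4. No immunoprecipitate and 3 of 4 unbound samples reached the minimum, and the groups did not overlap. The means, 4.83 ± 0.20 and 5.82 ± 0.35 (SD, n = 4 each), differed by -0.99 on the log2 scale. With values under 50 raised to 50, the level was 1.18-fold lower. Unbound sample 1 was raised as well, so this fold is not a minimum. When probe sets of any level were tested, the limma adjusted p was 0.0053, but the difference missed 2-fold. It was -0.18 after median centring and 0.45 after quantile normalization, so that the direction for Crhr1 depends on the scaling. The probe set 1427782_a_at lay between 2.15 and 2.33 on all arrays.

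Crhr2, the type 2 receptor, showed the opposite picture to the ligand in the probe set 1422012_at. It stood at 7.96, 8.47, 9.07 and 9.03 in immunoprecipitates 1 to 4 and at 3.62, 4.21, 3.84 and 4.10 in unbound samples 1 to 4. Every immunoprecipitate was above the minimum and every unbound sample below it. The means were 8.63 ± 0.53 and 3.94 ± 0.26 (SD, n = 4 each). The fitted log2 fold change was 4.69 ± 0.30 (SE; limma adjusted p = 2.2e-06), which rests on unbound values under 50. Crhr2 passed the filter through the immunoprecipitates alone, so the filter itself selects a rise and this p is no separate support. Against 50 itself the receptor was at least 7.86-fold higher on the scaling used here. The rise within a preparation was 4.33, 4.26, 5.23 and 4.94 on the log2 scale.

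Since the unbound level of Crhr2 is known only to lie under 50, its place among all fold changes is not given. The pattern of 50 or more on all 4 immunoprecipitates and on no unbound sample was met by 155 probe sets, or 0.868% of those tested. Groups without overlap and with the immunoprecipitate above were seen in 6.85%.

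The other probe set of Crhr2, 1450462_at, did not show this signal. It read 2.54 in 3 immunoprecipitates, 3.24 in the other and 2.15 in all 4 unbound samples, all under the minimum. The platform annotation gives both Crhr2 probe sets the same source sequence. The rise of Crhr2 therefore rests on a single probe set, and which part of the transcript each probe set reads was not examined. Of 223 genes called higher that have 2 or more probe sets, 134 (60.1%) had a probe set under 50 on all 8 arrays. That share was not computed for all tested genes, so whether such a split is particular to genes that rose cannot be said.

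The contrast between the genes was also taken within each array, where no constant added to an array or group can change it. The level of Crh minus that of Crhr2 ran from -1.75 to 0.80 in the immunoprecipitates and from 6.72 to 7.86 in the unbound samples. The immunoprecipitate mean minus the unbound mean was -8.32 (two-sided exact permutation p = 0.029, the smallest that 70 splits of 4 against 4 allow, and 0.043 after adjustment over 3 pairs). This test takes the arrays as unpaired, although same-numbered arrays are fractions of 1 preparation. Paired by preparation, neither this difference nor the next passed (exact sign-flip permutation p = 0.125 for each, the smallest that 4 pairs allow), and both kept their sign in 4 of 4 preparations. The level of Crhbp minus that of Crhr2 ran from -3.99 to -2.86 and from 3.34 to 3.77 in the same order. The differences of ligand and binding protein against the type 2 receptor were thus -8.32 and -6.85 on the log2 scale. Both had the same exact permutation p of 0.029 and adjusted 0.043. Crhr2 passed the filter through the immunoprecipitates alone and Crhbp largely through the unbound samples. That selection favours a separation of the groups, so these p values are no separate support for it. With values under 50 raised to 50 these differences were -6.60 and -4.72, again with an exact permutation p of 0.029.

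Ligand and binding protein differed less from each other. The level of Crh minus that of Crhbp averaged 2.32 ± 0.98 in immunoprecipitates and 3.78 ± 0.45 in unbound samples (SD, n = 4 each). Their difference of -1.46 did not pass the test (two-sided exact permutation p = 0.057, adjusted 0.057), and the groups overlapped. Without immunoprecipitate replicate 1 it was -1.91 with an exact permutation p of 0.029, and with values under 50 raised to 50 it was -1.88 with the same p.

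Markers of the labelled cells were higher in the immunoprecipitates, and most tested markers of other cells were lower. All 6 hypocretin neuron markers were called higher, with Hcrt at 15.36 ± 0.17 in the immunoprecipitates and 10.33 ± 0.55 in the unbound samples (SD, n = 4 each). These markers were picked with earlier results of these samples known. Mean marker level was lowest in immunoprecipitate 1, at 12.02, and ran from 12.40 to 12.77 in the other 3. Immunoprecipitate 1, which had the highest Crh and the lowest Crhr2 of the 4, also had the highest mean level of astrocyte markers, 8.06 against 6.46 to 7.49, and of thalamic neuron markers, 9.06 against 7.01 to 8.38. The mean over markers of other hypothalamic peptide neurons was 7.74 there, against 6.99 to 7.64 in the other 3 immunoprecipitates and 9.29 to 10.39 in the unbound samples. Of these peptide neuron markers 8 of 9 were called lower, as were 6 of 6 GABAergic, 5 of 6 thalamic, 8 of 8 astrocyte and 6 of 6 oligodendrocyte markers, and no tested marker of peptide neurons or oligodendrocytes was under 50 on all immunoprecipitates, while 1 tested marker each of the GABAergic, thalamic and astrocyte lists was. Ghrh, a peptide neuron marker that was not tested, was under 50 on every array. Markers of microglia and of endothelial and mural cells were called lower in 5 of 5 and 2 of 2 cases. Of these, 2 microglia markers and 1 endothelial marker were under 50 on all immunoprecipitates. Under 50 on every array were 4 of 6 endothelial and mural markers and 4 of 7 pituitary markers. Of 2 tested pituitary markers 1 was lower. Among all tested genes 44.2% were called lower. After immunoprecipitate 1, immunoprecipitate 2 stood highest on the astrocyte, thalamic and peptide neuron lists, at 7.49, 8.38 and 7.64. Its Crh was the lowest of the 4. Immunoprecipitate 4 was lowest on those lists, at 6.46, 7.01 and 6.99, and its Crhbp was the highest of the 4. The part of RNA from other cells in the levels of Crh and Crhbp was not tested. Without immunoprecipitate replicate 1, and with the group constants recomputed, the log2 fold change of Crh was -4.14.

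The share of probe sets at or above 50 was 33.6% to 34.8% on immunoprecipitate arrays and 40.5% to 40.9% on unbound arrays. The 3′ minus 5′ signal, a measure of RNA integrity, differed between the groups by 0.32 for Actb and 0.46 for Gapdh on the log2 scale (unpaired exact permutation p = 0.31 and 0.46). For Gapdh it was larger in the immunoprecipitate in 4 of 4 preparations, and preparation 4 stood apart. It was 4.50 in immunoprecipitate 4 against 2.12 to 2.31 in the other 3, and 3.36 in unbound sample 4 against 1.94 to 2.08. Immunoprecipitate 4 was also the 1 of its group in which Crhbp reached 50. Without that array, and with the group constants recomputed, the log2 fold change of Crhbp was -2.28. Precision is limited by the number of arrays.

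Genes that act around the CRH system were taken from lists with 85 distinct genes, of which 61 were tested. Of these, 3 were called higher and 35 lower, that is 4.92% and 57.4%, beside 4.74% and 44.2% of all tested genes. Their median log2 fold change was -1.49, beside -0.85 for all tested genes. The lists give no test of their own.

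Other class B peptide hormone receptors, the family of Crhr1 and Crhr2, were little seen. Of 12 on the array, 8 were under 50 on every array and 3 were tested. Adcyap1r1, the receptor of the peptide PACAP, stood at 10.30 ± 0.33 in the immunoprecipitates and 10.97 ± 0.41 in the unbound samples (SD, n = 4 each) and was not called. Pth1r, a parathyroid hormone receptor, and Calcrl, which pairs with accessory proteins to form receptors for CGRP and adrenomedullin, were at least 2.08- and 2.54-fold lower. Calcrl passed the filter through the unbound samples alone. With a minimum of 100 only 1 of these receptors was tested and 0 were called.

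**Figure D3:**
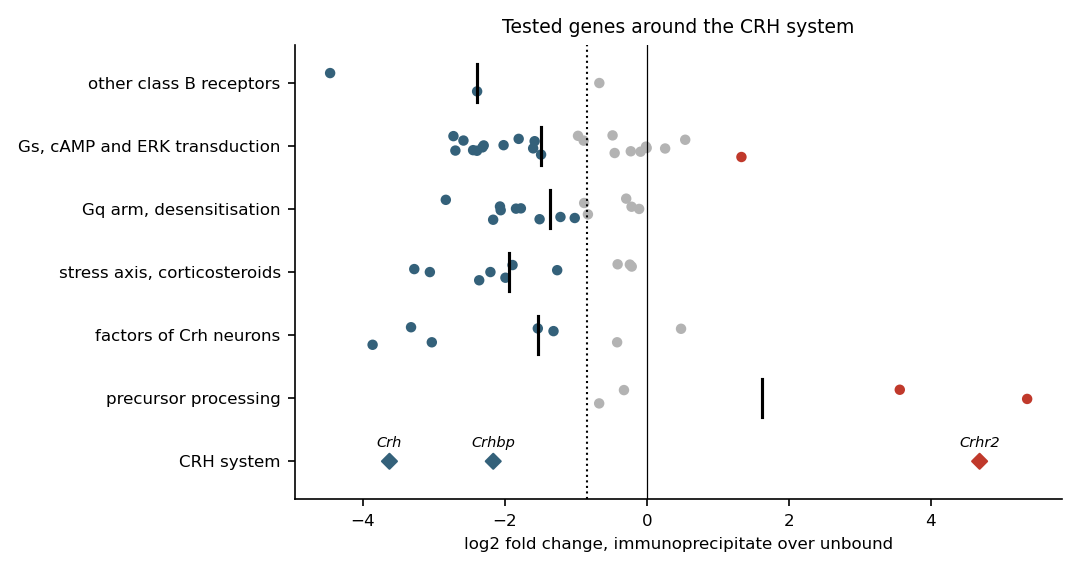
Log2 fold change (x axis, immunoprecipitate over unbound) of every tested gene of the lists around the CRH system, 1 point per gene, called higher in red, called lower in blue and not called in grey, with the list median as a bar; the tested CRH system genes are diamonds and the dotted line is the median of all tested genes, -0.85. Most points lie left of 0, and Crhr2 lies with Pcsk1 and Pam on the right.

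Of 23 tested genes that carry the signal of the receptors through the stimulatory G protein, cyclic AMP and ERK, 12 fell and 1 rose, with a median of -1.49. These shares lie near those of all tested genes, of which 44.2% fell and 4.74% rose. The adenylyl cyclases Adcy1, Adcy2 and Adcy9, which make cyclic AMP, fell 6.61-, 6.49- and 6.00-fold. Creb1, the factor that binds cyclic AMP response elements, fell 5.46-fold, and its probe sets were all called lower. The gene that rose, named after its value was seen, was the calcium-stimulated cyclase Adcy8, by 1.33 ± 0.34 (SE) on the log2 scale with a limma adjusted p of 0.0061. It lost that call without unbound replicate 3 and on the poly-A controls, where 0 genes of the list rose. After median centring 3 genes of the list rose and 8 fell, and quantile normalization gave 2 and 9. Gnas, the stimulatory G protein itself, likewise added once values had been seen, changed by 0.26 (log2) and was not called, but its 4 tested probe sets had calls in both directions.

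Of 14 genes of the Gq arm and of receptor desensitisation and trafficking, 9 fell and 0 rose (median -1.36). Of all tested genes 44.2% fell and 4.74% rose. Phospholipases Plcb1 and Plcb4 fell 7.13- and 4.49-fold, and the protein kinase C form Prkce fell 4.17-fold. Grk3, a kinase that phosphorylates active receptors, CRH receptors among them, fell 4.20-fold. After median centring 5 of the 14 and after quantile normalization 4 of the 14 were called lower.

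In the list of the stress axis and corticosteroid feedback 7 of 10 fell and 0 rose (median -1.94), beside 44.2% and 4.74% of all tested genes. Nr3c1, the glucocorticoid receptor through which corticosterone restrains Crh, fell 8.33-fold, from 12.01 ± 0.25 in the unbound samples to 8.96 ± 0.76 in the immunoprecipitates (SD, n = 4 each). Nr3c2, the mineralocorticoid receptor, fell 4.61-fold and Sgk1, a kinase that corticosteroids induce, 5.14-fold. Avp, the peptide that acts beside CRH on the pituitary, fell 9.70-fold. Quantile normalization left 4 genes of the list called lower.

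Of 7 factors known from Crh neurons or from control of the Crh gene, 5 fell and 0 rose (median -1.54). The shares of all tested genes were 44.2% and 4.74%. Otp, Sim1 and Pou3f2, which paraventricular neurons need in development, were at least 7.76-, 2.36- and 2.18-fold lower. Sim1 and Pou3f2 were under 50 on all 4 immunoprecipitates and passed the filter through the unbound samples alone. Nr4a2, an orphan nuclear receptor, fell 2.90-fold. After either median centring or quantile normalization 3 of the 7 were called lower.

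The enzymes that cut and amidate peptide precursors, pro-CRH among them, were the 1 list with more genes higher than lower. Of 4 tested, 2 were higher and 0 lower (median 1.62), beside 4.74% and 44.2% of all tested genes. Pcsk1, a prohormone convertase, rose 41.0-fold, and Pam, which amidates peptides, was at least 2.99-fold higher. Both are also used for other peptides. Pam passed the filter through the immunoprecipitates alone, and Pcsk1 is also among the hypocretin neuron markers picked with earlier results known. With a minimum of 100, 1 of 3 tested genes was higher and the median was -0.32. On the poly-A controls 2 of the 4 were called higher and 2 lower.

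The genes whose levels followed each tested member most closely were found by the root mean square difference of log2 levels over the 8 arrays, each gene centred on its own mean, among 10398 genes. Since all 8 arrays of both groups enter, the closeness reflects the difference between the groups more than the spread within them. Nearest to Crh were Prox1os, Pxmp2 and Rbms2, at 0.17, 0.22 and 0.23. Nearest to Crhbp were Pip4k2b, Cep83os and Helz, at 0.13, 0.19 and 0.20. Nearest to Crhr2 were Gm10421, Emp3 and Tmem114, at 0.28, 0.28 and 0.30. Their log2 fold changes ran from -3.89 to -3.53 for Crh, from -2.36 to -2.01 for Crhbp and from 4.35 to 5.21 for Crhr2. The unbound values of Crhr2 that enter here lie under 50, which limits the choice of its nearest genes.

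The directions of the tested members were compared between ways of scaling the groups, since the groups were normalized apart. Crhr2 gave 5.50 after median centring, 5.61 after quantile normalization and 2.72 on the poly-A controls, and it kept its call on each. Crh gave -2.82, -2.81 and -5.59 in the same order, and it kept its call as well. Crhbp gave -1.35, -0.93 and -4.13. The calls of Crhr2 and Crhbp carry the limit that the filter itself selects a difference for them. Those scalings moved the median of all tested probe sets by 0.81, 0.83 and -1.97.

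**Figure D4:**
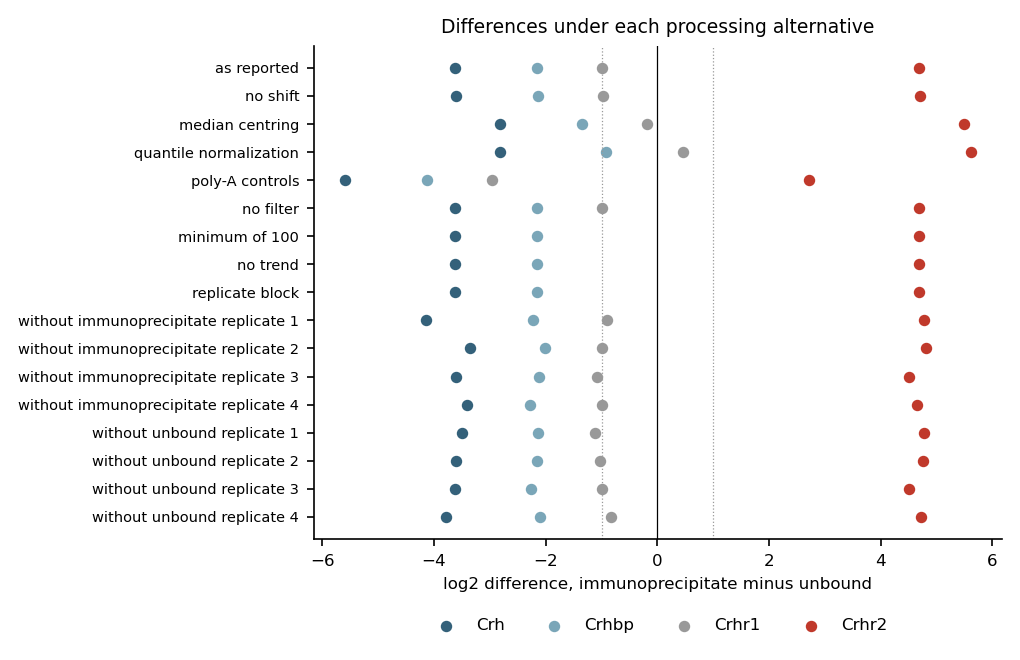
Log2 difference (x axis, immunoprecipitate minus unbound) of Crh, Crhbp, Crhr1 (probe set 1418810_at) and Crhr2 (probe set 1422012_at) as reported and under each alternative, 1 row per setting, with dotted lines at 2-fold; Crhr1 has no point where it was not computed. Crhr2 stays between 2.72 and 5.61 and Crh between -5.59 and -2.81, Crhbp comes within 2-fold after quantile normalization, and Crhr1 crosses 0 there.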

How the data were processed

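Ribosome-bound and unbound RNA of 4 preparations each was amplified in 2 cycles and hybridised to 8 Affymetrix arrays, per the labels' protocols. The authors deposited 1 log2 value per probe set and array; the log2 scale was read from the range of the values. The submitters' processing notes name GCRMA (background correction and normalization), with no version given in the sources used here, and per the labels' design text each group went through it separately. A constant per group then equalised the means of 18 biotinylated controls, which differed by 0.02, as the design text advises. Per array, the mean of these controls ran from 10.60 to 11.32 in the immunoprecipitates and from 10.43 to 11.43 in the unbound samples. That spread is wider than the difference, so this constant is imprecise as well.

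Probe sets that reached 50 on the linear scale on 4 or more arrays entered limma 3.58.1 under R 4.3.3 (eBayes with trend, no block), leaving out 64 control probe sets, with Benjamini-Hochberg adjustment over all 17865. Where only 1 group reached 50, or some arrays did not, values under 50 were raised to it. Such folds are given as at least, for the scaling used here. Crhr1 is the exception, since an unbound sample was raised as well. Gene names came from the platform annotation: 34958 probe sets had 1 symbol, 932 several and 9211 none listed. A gene was represented by its tested probe set with the highest mean. Of the listed promoters, Crhr2, Crhbp, Crhr1 and Ucn matched by symbol. Plots used matplotlib 3.10.9.

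Replicate numbers join the fractions of 1 preparation, per the labels. Between same-numbered arrays, deviations from group means had correlations of 0.44, 0.33, 0.25 and 0.59 across probe sets. Arrays of 1 group correlated at 0.92 to 0.98, and none were duplicates. Alternatives covered the scaling (deposited values unshifted, median centring, quantile normalization, 24 poly-A controls), the filter (none, or 100 as minimum), the fit (no trend, replicate block), the calls (no fold threshold), averaging of probe sets for a gene, and the omission of each array with the tested probe sets kept. In fits that left out an array, the group constants were recomputed from the arrays that remained. The fit was tested on simulated data.

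Members and lists were chosen with earlier results of these data known. Named genes are all members, Hcrt, the tested class B receptors, up to 4 called genes with the largest fold in each list and the 3 genes nearest to each tested member; others are marked in the text.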

Additional observations from a re-analysis of the deposited data

Results flagged for a closer look

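Within groups of 4 arrays, 3 of 14 groups over the 7 probe sets held a sample that stood far from the others by Dixon's ratio. Chance gives about 1 in 20 groups, but that rate does not hold where the other values are tied, as in 2 of these 3 groups. Crhbp in immunoprecipitate 4 was at 5.95, while the other 3 immunoprecipitates lay between 5.06 and 5.10, all under the linear minimum of 50. The Crhr1 probe set 1427782_a_at was at 2.33 in unbound sample 4 and at 2.15 in the other 3, and the Crhr2 probe set 1450462_at was at 3.24 in immunoprecipitate 3 and at 2.54 in the other 3. In both the other 3 values are identical, and all lie near the lowest values on the arrays.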

How the results depend on the processing

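Crh and Crhr2 kept their direction and their call under all 16 alternatives, with log2 fold changes from -5.59 to -2.81 and from 2.72 to 5.61. Crhbp did so under 15 of 16 and gave -0.93 after quantile normalization, short of 2-fold. The alternatives of filter, trend and block leave the fold change itself as it was and can alter only its p. Only the scalings and the omission of arrays could move the fold change. For Crhr2 and Crhbp the filter itself favours a call, except in the setting with no filter. Crhr1, which was not tested, turned from -0.99 to 0.45 after quantile normalization. Leaving out each array gave -4.14 to -3.36 for Crh, -2.28 to -2.02 for Crhbp, 4.50 to 4.81 for Crhr2 and -1.12 to -0.83 for Crhr1. The group constants were recomputed from the remaining arrays for Crh, Crhbp and Crhr2 but kept for Crhr1. The first 3 ranges therefore include a change of scaling, and that of Crhr1 does not. With the replicate block no call of a member changed, with limma adjusted p of 4.8e-05 for Crh, 0.00012 for Crhbp and 1.4e-05 for Crhr2, and 931 probe sets were higher and 8192 lower.

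The within-array differences of -8.32 (Crh minus Crhr2) and -6.85 (Crhbp minus Crhr2), paired by replicate block, had an exact sign-flip permutation p of 0.125, the smallest that 4 pairs allow, and that p says nothing about their stability. Leaving out each array gave -8.92 to -8.07 and -7.01 to -6.63 for these, and -1.91 to -1.13 for Crh minus Crhbp, whose -1.91 passed the test.

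Of all tested probe sets 872 were higher and 8059 lower. Median centring gave 3150 and 4228, quantile normalization 3081 and 3726, and the poly-A scale 125 and 16823; of the calls, 9.76%, 42.7%, 45.3% and 0.74% were higher in that order. The higher count was 1402 with no filter and 1489 with no fold threshold. Leaving out each array gave 725 to 1068 higher and 6929 to 9028 lower. Of 61 tested genes around the system, 3 were higher and 35 lower; 6 were higher after median centring, 21 lower after quantile normalization and 58 lower on the poly-A controls, and leaving out each array gave 2 to 3 higher and 33 to 38 lower. Unbound arrays had poly-A means between 7.17 and 10.55, so that scale is imprecise. The cause of these shifts was not tested. Low signal limits Crhr1 and Ucn.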
